A study of Saccharomyces cerevisiae with 117 samples.

Results

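The genes described here are 32 genes of Saccharomyces cerevisiae that encode subunits of the 26S proteasome, together with RPN4 (YDL020C), 33 of the 6420 gene entries counted in every cell. The rule that picks them is a list of systematic names and uses no measured value, but the list was drawn up with earlier results of these data known. The set holds 7 alpha and 7 beta subunits of the 20S core, 6 RPT ATPases and 12 RPN subunits of the 19S cap, and RPN4 itself. All 33 had reads in the files, and none overlaps another annotated RefSeq gene.

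The proteasome is the protease that destroys proteins tagged with ubiquitin. Its core is a barrel of stacked alpha and beta rings with the catalytic sites inside, and its cap recognises, unfolds and threads substrates into that barrel. Rpn4 is a zinc-finger transcription factor that binds the proteasome-associated control element (PACE) upstream of most of these genes. Because Rpn4 is itself a short-lived substrate of the proteasome, the pair forms a feedback loop in yeast.

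The series holds 117 libraries of full-length cDNA, each from 1 cell of strain S288C whose wall had been removed with Zymolyase (a spheroplast), and all cells derive from 1 monoclonal stock. In batch 1, spheroplasts were held in S medium without amino acids (AAS, amino acid starvation), in S medium without sorbitol (hypotonic) or in complete S medium with glucose, amino acids and 1 M sorbitol (isotonic). In batch 2 they were held in S medium without glucose (GS, glucose starvation) or in the isotonic medium. The 84 cells that the study kept after its quality filters were used, as read from the columns of its count table (batch 1) and from the cell names in its clustering figure (batch 2), namely 18 AAS, 12 hypotonic and 16 isotonic cells in batch 1 and 21 GS beside 17 isotonic cells in batch 2. The labels and the paper give different ranges of exposure and neither gives the exposure of a single cell. No separate cultures are named for the cells of a condition, so each condition of a batch counted as 1 sample. Differences are therefore described by their size and by the spread over cells, with no p-value, and a condition and a culture cannot be told apart.

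Depth was between 3112955 and 8502504 reads on genes in AAS cells, between 4297691 and 7870247 in hypotonic cells and between 3603505 and 55179414 in isotonic cells of batch 1. It was between 705807 and 2535593 in GS cells and between 14245 and 1133518 in the isotonic cells of that batch. AAS cells had a median of 5117.5 genes detected, hypotonic cells 3255, isotonic cells of batch 1 4149.5, GS cells 1332 and isotonic cells of batch 2 1047. A single isotonic cell of batch 1 held 26.4% of the reads of its group. S288C is of mating type alpha, and the alpha genes MF(ALPHA)1, MF(ALPHA)2 and STE3 were read in 18 of 18 AAS, 12 of 12 hypotonic and 16 of 16 isotonic cells of batch 1, and in batch 2 in 19 of 21 GS cells and 16 of 17 isotonic cells. The 4 genes of the other mating type, which these cells should not transcribe, had a read in 38.9% of gene and cell pairs in AAS, 12.5% in hypotonic and 28.1% in isotonic cells of batch 1, and in 0 pairs in batch 2. Their summed level averaged 30.2 CPM in AAS cells, 8.65 CPM in hypotonic cells and 4.16 CPM in isotonic cells, where CPM is a gene's count scaled to 1e+06 reads on genes in that cell.

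PACE is the 9-letter motif GGTGGCAAA. An exact match on either strand lay between 250 bases before and 50 bases after the start of the coding sequence of 27 of the 32 subunit genes (84.4%), against 72 of 6001 genes of the RefSeq R64 annotation (1.2%). The 27 genes were 6 of 7 alpha, 6 of 7 beta, 6 of 6 RPT and 9 of 12 RPN genes. The genes without an exact match in this window were PRE5, PUP1, RPN8, RPN10, RPN13 and RPN4. The motif began 84 to 183 bases before the start, with a median of 120, and lay on the strand of the gene in 19 genes and on the other strand in 8. The 10 sites below belong to a part of the subunits named in the comparisons. Other subunits named there are not printed, among them RPN10, PRE5 and PUP1, which have no exact match. Each site is printed 5′ to 3′ along the strand that carries PACE, with PACE in capitals. The positions are those of the RefSeq R64 genome.
PRE8 (chrXIII:86841-86869, minus strand): agcttattaaGGTGGCAAAattgtccccg
PRE2 (chrXVI:732184-732212, plus strand): acagcaaaagGGTGGCAAAacgaagaata
PUP3 (chrV:349511-349539, minus strand): tggcactgccGGTGGCAAAaaagtgcaaa
PRE4 (chrVI:249959-249987, plus strand): acgtatttaaGGTGGCAAAttctaaacca
RPN1 (chrVIII:164838-164866, minus strand): tgtgttttacGGTGGCAAAaggcgagcac
RPN3 (chrV:196843-196871, minus strand): ctctttcttgGGTGGCAAAtgtttttcgt
RPN6 (chrIV:286790-286818, minus strand): tggttccaagGGTGGCAAAtgttggtaga
RPN7 (chrXVI:742290-742318, minus strand): atcctcaatgGGTGGCAAActtaacttat
RPN11 (chrVI:153259-153287, plus strand): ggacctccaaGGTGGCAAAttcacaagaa
RPN12 (chrVI:252398-252426, minus strand): aatttcaatgGGTGGCAAAtaatgtgtag
A match is a description of the letters in the window and not a measurement of binding.

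**Figure D1:**
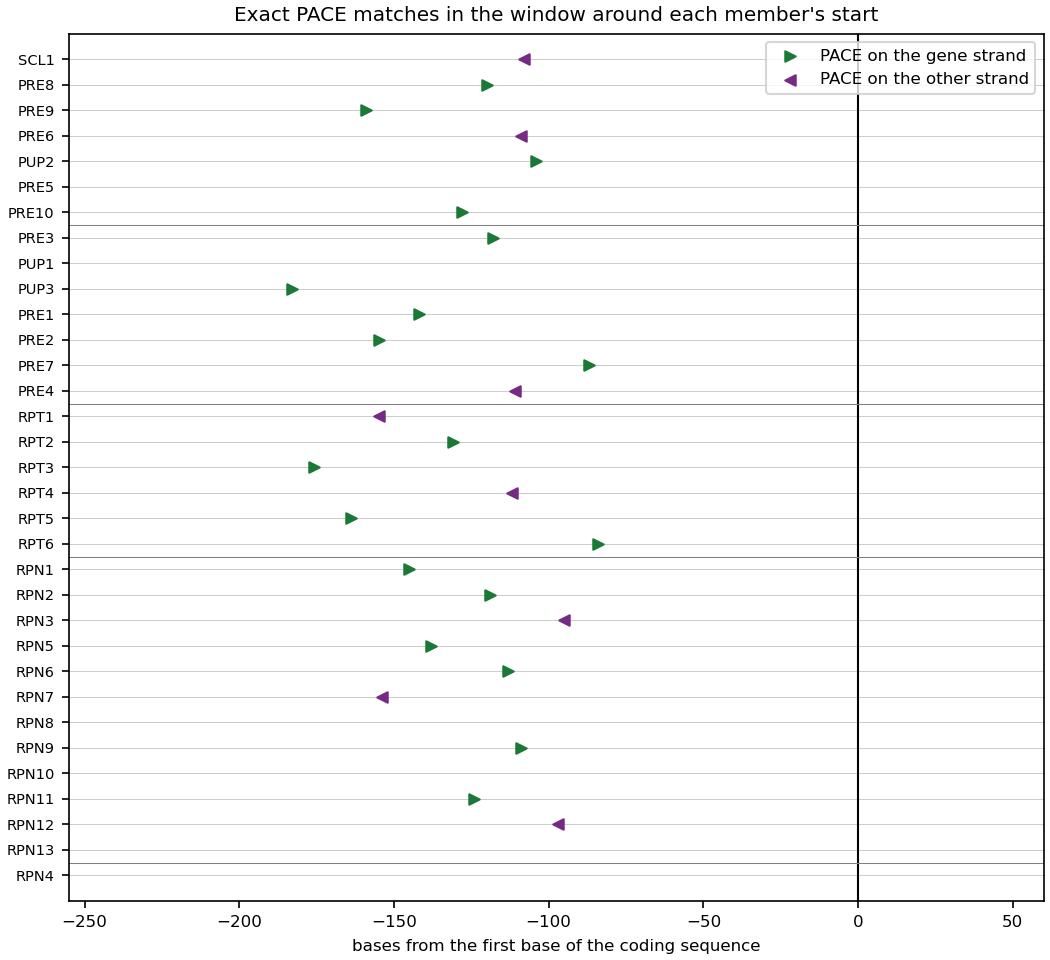
Position of the exact PACE match in each of the 33 genes, in bases from the first base of the coding sequence (horizontal axis), with triangles pointing right for the strand of the gene and left for the other strand. The 27 matches sit between 84 and 183 bases before the start, and 6 genes, RPN4 among them, have none in the window.

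RPN4 holds no PACE, but its upstream region is known for sites of Pdr1 and Pdr3, regulators of multidrug resistance, and of Yap1, the regulator of the oxidative stress response. In its 500 upstream bases, the Pdr1/Pdr3 element (TCCGCGGA or TCCGTGGA, either strand) occurred at 2 places, against at least 1 match in 1.67% of 6000 genes. The Yap1 element (TTACTAA, either strand) occurred at 1 place, against a match in 11.8% of 6000 genes. The 2 Pdr1/Pdr3 elements began 442 and 399 bases before the start and the Yap1 element 374 bases before it. The stretch that carries them, printed because RPN4 had the highest log2 fold change of the 33 genes in AAS cells, has the elements in capitals and runs along the strand of the gene.
RPN4 (chrIV:417066-417160, minus strand): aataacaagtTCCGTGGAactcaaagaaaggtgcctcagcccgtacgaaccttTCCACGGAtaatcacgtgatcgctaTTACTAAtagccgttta
The second capital run, read on the opposite strand, is the same Pdr1/Pdr3 element as the first.

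**Figure D2:**
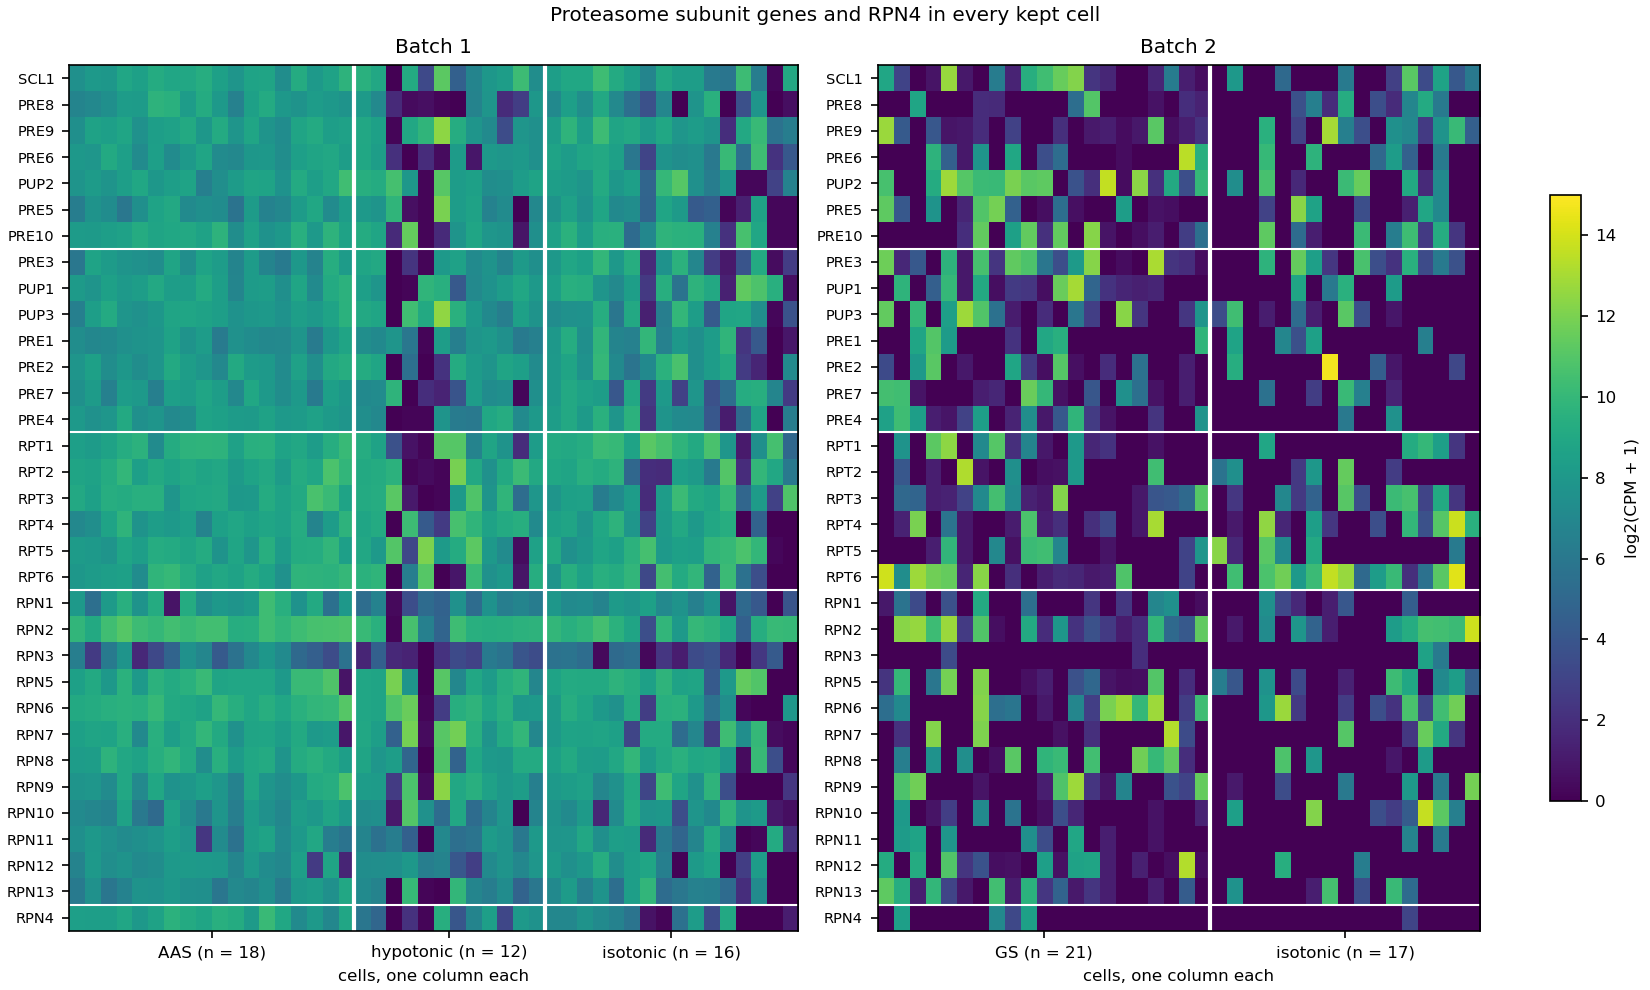
Level of each of the 33 genes (rows, in the order alpha, beta, RPT, RPN and RPN4) in each of the 84 cells (columns), as log2(CPM + 1), with AAS, hypotonic and isotonic cells of batch 1 on the left and GS beside isotonic cells of batch 2 on the right. All 32 subunit genes had a read in each of the 18 AAS cells, while dark entries with 0 reads are scattered over hypotonic and isotonic cells and fill much of batch 2.

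Levels of different genes were set side by side per kilobase of coding length. In AAS cells the median over the 14 core genes was 419 CPM per kb and that over the 18 cap genes 367 CPM per kb. In isotonic cells of batch 1 the same medians were 444 CPM per kb for the core and 279 CPM per kb for the cap. RPN6, a scaffold subunit of the lid, was first in AAS cells with 595 ± 298 CPM per kb (SD over 18 cells). PUP1, the beta subunit with the trypsin-like site, was first in isotonic cells of batch 1 with 763 ± 891 CPM per kb (SD over 16 cells). These SDs span most of the order, so that neighbouring genes in it did not differ beyond their spread over cells. RPN3, another lid subunit, and RPN1, the large scaffold that binds ubiquitin and shuttle factors, stood at the lower end in both groups. RPN3 had 50.0 ± 48.6 CPM per kb in AAS cells and 10.9 ± 12.6 CPM per kb in isotonic cells, and RPN1 had 124 ± 108 CPM per kb in AAS cells and 46.3 ± 37.0 CPM per kb in isotonic cells. The third-lowest gene per kb stood 1.81-fold above RPN1 in AAS cells, where it was RPN11, and 4.79-fold above it in isotonic cells, where it was PRE8. RPN1 has the longest coding sequence of the 32, with 2982 bases. Without division by length, RPN1 had 371 CPM in AAS cells, above RPN13 with 181 CPM. In isotonic cells RPN1 had 138 CPM and RPN13 157 CPM. RPN3 stayed the lowest in both groups, with 78.6 and 17.2 CPM. The paper reports that coverage falls toward the 5′ end in all libraries. Whether reads scale with coding length was not tested. RPN3 was also the lowest of the 32 in hypotonic cells, with 10.3 CPM per kb, and in GS cells, with 0.390 CPM per kb. In isotonic cells of batch 2 RPN1 was the lowest, with 4.39 CPM per kb, and RPN3 had 17.5 CPM per kb.

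The first comparison asked how removal of amino acids changed these genes. RPN4 mRNA was 4.43-fold higher in AAS cells than in isotonic cells of batch 1, while most subunit genes lay within 2-fold. In batch 1, spike-in RNA took 5.12% of reads in AAS cells, 0.0391% in hypotonic cells and 0% in isotonic cells (medians over cells). The part of that difference between the libraries in these values was not tested. RPN4 had a lowest, median and highest level of 122, 425 and 1164 CPM in AAS cells, against 0, 50.3 and 525.7 CPM in isotonic cells. It was read in 18 of 18 AAS and 13 of 16 isotonic cells, and in 18 AAS and 9 isotonic cells after each cell had been thinned to 100000 reads. The groups overlapped in part. 5 AAS cells lay above the highest isotonic cell, 10 isotonic cells lay below the lowest AAS cell, and the AAS cell was the higher in 92.0% of pairs. The means were 456 ± 250 CPM in AAS cells and 102 ± 144 CPM in isotonic cells (SD over 18 and 16 cells), a log2 fold change of 2.15, or 2.47 without the highest cell of each group. A log2 fold change here is the log2 ratio of the mean CPM over cells after 1 CPM was added to each mean.

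That value stands against a shift of the whole table. Over the 5825 genes detected in 20% or more of these cells, the median log2 fold change was 0.74, which RPN4 exceeded by 1.40, and 18.9% of those genes had a log2 fold change at or above that of RPN4. RPN4 stayed at least 2-fold higher in AAS under all 14 alternative settings other than leaving out single cells, with log2 fold changes of 1.40 to 4.28. Among AAS cells, the 5 with X in their names averaged 360 CPM and the 13 without it 493 CPM. Among isotonic cells, the 9 named A averaged 88.0 CPM and the 7 named E or G averaged 120 CPM. On average each AAS subset was above each isotonic subset. The sources used here do not say what these name marks stand for.

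Of the 32 subunit genes, 4 were at least 2-fold higher in AAS cells, against 43.2% of the 5825 genes, and 0 were at least 2-fold lower, against 13.8%. The remaining 28 genes lay within 2-fold of isotonic cells, a share of 87.5% that compares with 43.1% of all genes tested. The median log2 fold change was −0.09 over the 14 core genes and 0.24 over the 18 cap genes. Both medians lie below the 0.74 of all genes tested, and 27 of the 32 subunits did so singly. Summed reads scaled by TMM gave −1.12 for the core and −0.58 for the cap, with 0.09 for all genes tested. The subunit genes are among the more abundant ones, with a median over genes of 341 CPM in the cells of this comparison, against 70.3 CPM for all genes tested. The part of abundance and of gene detection in the share within 2-fold was not tested.

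Among the alpha subunits, which form the outer rings and the gate of the core, PRE8 was the highest. PRE8 (YML092C) had a lowest, median and highest level of 97.4, 284 and 844 CPM in AAS cells, against 0, 125 and 738 CPM in isotonic cells. The groups overlapped widely, with the AAS cell the higher in 76.7% of pairs, and the log2 fold change of 1.01 is at the edge of the 2-fold rule. PRE9, the alpha subunit that yeast can live without, was the lowest of the 7 with 357 CPM in AAS cells and 439 CPM in isotonic cells (log2 fold change −0.30.)

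All 7 beta subunits, which form the inner rings, lay within 2-fold. The 3 catalytic ones had lower means in AAS cells, but by less than their spread over cells. PRE3, with the caspase-like site, averaged 254 ± 153 CPM in AAS cells and 294 ± 318 CPM in isotonic cells (log2 fold change −0.21.) PUP1 averaged 356 ± 174 CPM in AAS cells and 600 ± 700.7 CPM in isotonic cells, with −0.75, the lowest of all 32 subunits. PRE2, with the chymotrypsin-like site, averaged 313 ± 161 CPM in AAS cells and 366 ± 444 CPM in isotonic cells, with −0.22. The non-catalytic PUP3 was the highest beta subunit, at 333 CPM in AAS cells and 268 CPM in isotonic cells, with 0.31.

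The 6 RPT genes encode the ATPase ring that unfolds substrates, and their log2 fold changes lay between −0.51 and 0.38. RPT3 was the highest, with 585 CPM in AAS cells and 450 CPM in isotonic cells. RPT1 was the lowest, with 588 CPM in AAS cells and 835 CPM in isotonic cells.

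The other 3 genes past 2-fold were RPN subunits of the cap. RPN3 (YER021W) had a lowest, median and highest level of 2.29, 49.2 and 240 CPM in AAS cells, against 0, 7.11 and 52.8 CPM in isotonic cells. 8 of the 18 AAS cells lay above every isotonic cell, and the log2 fold change was 2.13. RPN6 (YDL097C) had 404, 696 and 2114 CPM in AAS cells, against 0, 250 and 749 CPM in isotonic cells. No AAS cell fell below 404 CPM, the AAS cell was the higher in 87.2% of pairs, and the log2 fold change was 1.41. RPN1 (YHR027C) had 0.734, 257 and 1308 CPM in AAS cells, against 0, 136 and 363 CPM in isotonic cells. Its log2 fold change was 1.42 and 6 AAS cells lay above every isotonic cell.

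These 4 genes also stayed past 2-fold without the highest cell of each group, against 42.3% of the genes tested on the higher side and 9.89%, with 0 subunits, on the lower. They did not stay so under each setting. Summed reads scaled by TMM left only RPN3 past 2-fold, with 1.62, and gave −0.09 for RPN6, 0.37 for RPN1 and 0.44 for PRE8, in a sum to which the deepest isotonic cell brings 26.4% of its group's reads. Against the isotonic cells named A alone, RPN1 had 0.85 and RPN6 had 0.83.

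RPN11, the deubiquitinase that frees substrates of ubiquitin as they enter, was equal on average, with 207.02 ± 130 CPM in AAS cells and 206.4 ± 204.7 CPM in isotonic cells. RPN2, the other large scaffold, averaged 1250 ± 408 CPM in AAS cells and 729 ± 402 CPM in isotonic cells, with a log2 fold change of 0.78. RPN10, a ubiquitin receptor, was the lowest RPN gene at −0.14, with 205.7 CPM in AAS cells and 227 CPM in isotonic cells.

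**Figure D3:**
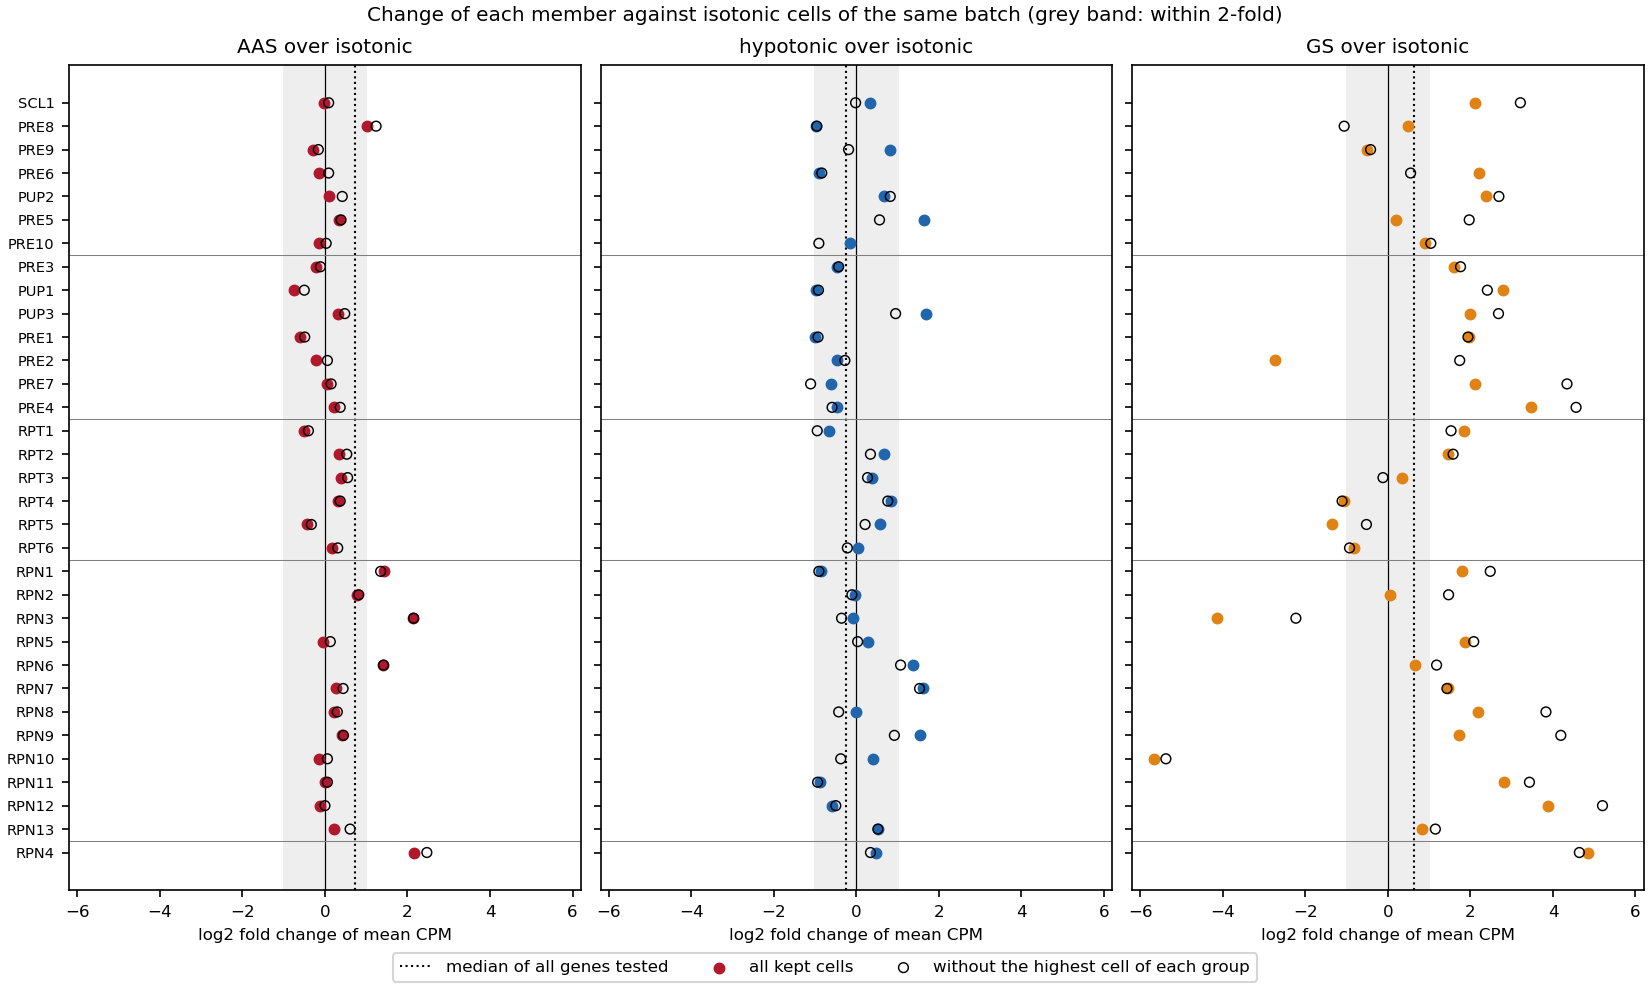
Log2 fold change of mean CPM of each of the 33 genes (rows) in AAS, hypotonic and GS cells over isotonic cells of the same batch, with filled points for all kept cells, open points without the highest cell of each group, a grey band for changes within 2-fold and a dotted line at the median of all genes tested. In AAS 28 of 32 subunits lie in the band while RPN4 is at 2.15, and in GS the points spread from −5.67 for RPN10 to 4.84 for RPN4.

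The second comparison asked what loss of osmotic support did, within batch 1. Every hypotonic cell has X in its name and most kept isotonic cells do not. The condition and this name mark could therefore not be told apart. Subunit genes were close to isotonic cells on average and more scattered between cells. Of the 32 genes, 5 were at least 2-fold higher in hypotonic cells, against 21.2% of the 5600 genes tested, and 0 were at least 2-fold lower, against 30.1%. The median log2 fold change was −0.46 over the core and 0.34 over the cap, beside −0.26 over all genes tested. RPN4 did not pass 2-fold, with a lowest, median and highest level of 0, 43.98 and 667 CPM in hypotonic cells, against 0, 50.3 and 525.7 CPM in isotonic cells. The ranges coincide almost fully, the hypotonic cell was the higher in 55.7% of pairs, and the log2 fold change of 0.47 became −0.12 without the hypotonic cell F23X.

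The same cell, F23X, decided 3 of the 5 calls. PUP3 (YER094C) had 0, 402 and 5717 CPM as lowest, median and highest level in hypotonic cells, against 0.197, 179 and 992 CPM in isotonic cells, and F23X held 55.01% of the hypotonic sum. PRE5 (YMR314W), an alpha subunit, averaged 541 CPM in hypotonic cells and 172 CPM in isotonic cells, with 61.7% of the hypotonic sum in F23X. RPN9 (YDR427W), a lid subunit, averaged 837 CPM in hypotonic cells and 290 CPM in isotonic cells, with 53.7% in F23X. Their log2 fold changes of 1.69 for PUP3, 1.64 for PRE5 and 1.53 for RPN9 were 0.95, 0.56 and 0.92 in the same order without the highest cell of each group.

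Without those highest cells only RPN6 and RPN7 stayed past 2-fold, 2 of 32 genes against 13.3% of all genes tested, and 0 were lower both with and without those cells, against 24%. RPN7 (YPR108W), a lid scaffold, had 0.334, 544 and 3787 CPM in hypotonic cells, against 0.223, 317 and 1311 CPM in isotonic cells, with log2 fold changes of 1.61 with and 1.53 without those cells. RPN6 had 0.167, 454 and 3025 CPM in hypotonic cells, against 0, 250 and 749 CPM in isotonic cells, with 1.37 and 1.07. For both genes only 3 of the 12 hypotonic cells lay above the highest isotonic cell.

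On the lower side, several subunits came to the edge of 2-fold. PRE1, a beta subunit, averaged 154 ± 97.6 CPM in hypotonic cells and 308 ± 349 CPM in isotonic cells, which is just inside the rule. PUP1 followed at −0.99, with 301 CPM in hypotonic cells and 600 CPM in isotonic cells. PRE8 had −0.98, with 84.5 CPM in hypotonic cells and 167 CPM in isotonic cells, and its median over hypotonic cells was only 4.10 CPM. The other catalytic subunits were PRE3 with −0.47, at 212.5 CPM in hypotonic cells and 294 CPM in isotonic cells, and PRE2 with −0.48, at 262 CPM in hypotonic cells and 366 CPM in isotonic cells. RPN11 was the lowest RPN gene at −0.88, with 111 CPM in hypotonic cells and 206.4 CPM in isotonic cells. Among the ATPases, RPT4 was the highest at 0.85, with 546 CPM in hypotonic cells and 303 CPM in isotonic cells. RPT1 was the lowest at −0.66, with 529 CPM in hypotonic cells and 835 CPM in isotonic cells.

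The third comparison asked how removal of glucose changed these genes, in batch 2, where most subunits were read in only part of the cells. Of the 32 subunit genes, 18 were at least 2-fold higher in GS cells, against 44.1% of the 2106 genes tested, and 5 were at least 2-fold lower, against 26.2%. The calls split between core and cap. Of the 14 core genes 9 were higher and 1 lower, and their median log2 fold change was 1.99. Of the 18 cap genes 9 were higher and 4 lower, with a median of 1.14, beside 0.64 over all genes tested. All subunits but RPN3 passed the detection filter. Without the highest cell of each group, 17 of the higher calls and 3 of the lower ones held, against 39.6% and 21.6% of the genes tested. The GS cells had 40.5% and the isotonic cells 77.2% of their reads on spike-in RNA (medians over cells), and the part of that difference in input in these values was not tested.

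In the alpha ring, PUP2 was the highest and the most widely read. PUP2 (YGR253C) had 0, 996 and 12824 CPM as lowest, median and highest level in GS cells, against 0, 0 and 2917 CPM in isotonic cells. It had a read in 18 of 21 GS cells and in 8 of 17 isotonic cells, with a log2 fold change of 2.38. PRE9 was the lowest alpha gene at −0.51, with 445 CPM in GS cells and 632 CPM in isotonic cells.

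In the beta rings, 6 of 7 genes were higher in GS. PRE4 (YFR050C) had 0, 3.86 and 1298 CPM in GS cells, against 0, 0 and 190 CPM in isotonic cells. 6 GS cells lay above every isotonic cell, PRE4 was read in 16 of 21 GS and 2 of 17 isotonic cells, and its log2 fold change was 3.46. PUP1 averaged 638 CPM in GS cells, read in 16 of 21, and 91.7 CPM in isotonic cells, read in 4 of 17, with 2.79. PRE3 averaged 1158 CPM in GS cells and 382 CPM in isotonic cells, with 1.60. PRE2 (YPR103W) was the exception, and a single cell set its value. It averaged 244 CPM in GS cells, read in 12 of 21, and 1638 CPM in isotonic cells, read in 5 of 17, where 1 cell with 27161 CPM held 97.6% of the sum. Its log2 fold change was −2.74 with that cell and 1.74 when each group's highest cell was left out.

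The ATPases did not share this side. RPT1 was at least 2-fold higher, with 519 CPM in GS cells and 143 CPM in isotonic cells (log2 fold change 1.85). RPT5 was at least 2-fold lower, with 189 CPM in GS cells and 488 CPM in isotonic cells. Its log2 fold change was −1.36 with all cells and −0.52 without the highest ones. RPT4 had −1.06 and RPT2 had 1.45, and the median over the 6 RPT genes was −0.25.

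The RPN genes ran to both extremes. RPN12 (YFR052W), a lid subunit, had 0, 1.40 and 9803 CPM in GS cells, against 0, 0 and 681 CPM in isotonic cells. It was read in 16 of 21 GS and 2 of 17 isotonic cells, and its log2 fold change was 3.88, or 5.20 without the highest cells, of which the GS one held 69.2% of its group's sum. RPN10 (YHR200W) was the lowest, with 0, 0 and 269 CPM in GS cells, against 0, 0 and 12911 CPM in isotonic cells. It was read in 10 of 21 GS cells and 8 of 17 isotonic cells, and in 2 GS cells and 7 isotonic cells after thinning to 10000 reads, and the log2 fold change was −5.67, or −5.38 without the highest cells. RPN11 averaged 77.1 CPM in GS cells, read in 8 of 21, and 10.1 CPM in isotonic cells, read in 2 of 17, with 2.81. RPN3 had 18 reads in all GS cells and 162 reads in all isotonic cells of batch 2. Isotonic cells of batch 2 were shallower than GS cells by their medians. Thinned to 10000 reads, PUP2 was read in 13 GS and 5 isotonic cells, PRE4 in 7 GS and 1 isotonic, PUP1 in 7 GS and 3 isotonic, RPN12 in 7 GS and 2 isotonic and RPN11 in 3 GS and 2 isotonic cells. At that depth the shares of cells with a read lay closer together for these 5 genes and farther apart for RPN10.

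RPN4 was read in 4 of 21 GS cells, a share of 19.05% (exact Clopper-Pearson 95% interval 5.45% to 41.9%), and in 1 of 17 isotonic cells, or 5.88% (0.149% to 28.7%). Such intervals cover counting error only. Its levels in the 4 GS cells were 8.35, 125, 347 and 365 CPM, and the isotonic cell had 7.49 CPM from 5 reads. RPN4 did not pass the detection filter, and its log2 fold change of 4.84 rests on those cells. With all labelled cells it was 0.71, since an isotonic cell that the study left out had 348 CPM. A difference of RPN4 between GS and isotonic cells was not detectable at this depth.

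**Figure D4:**
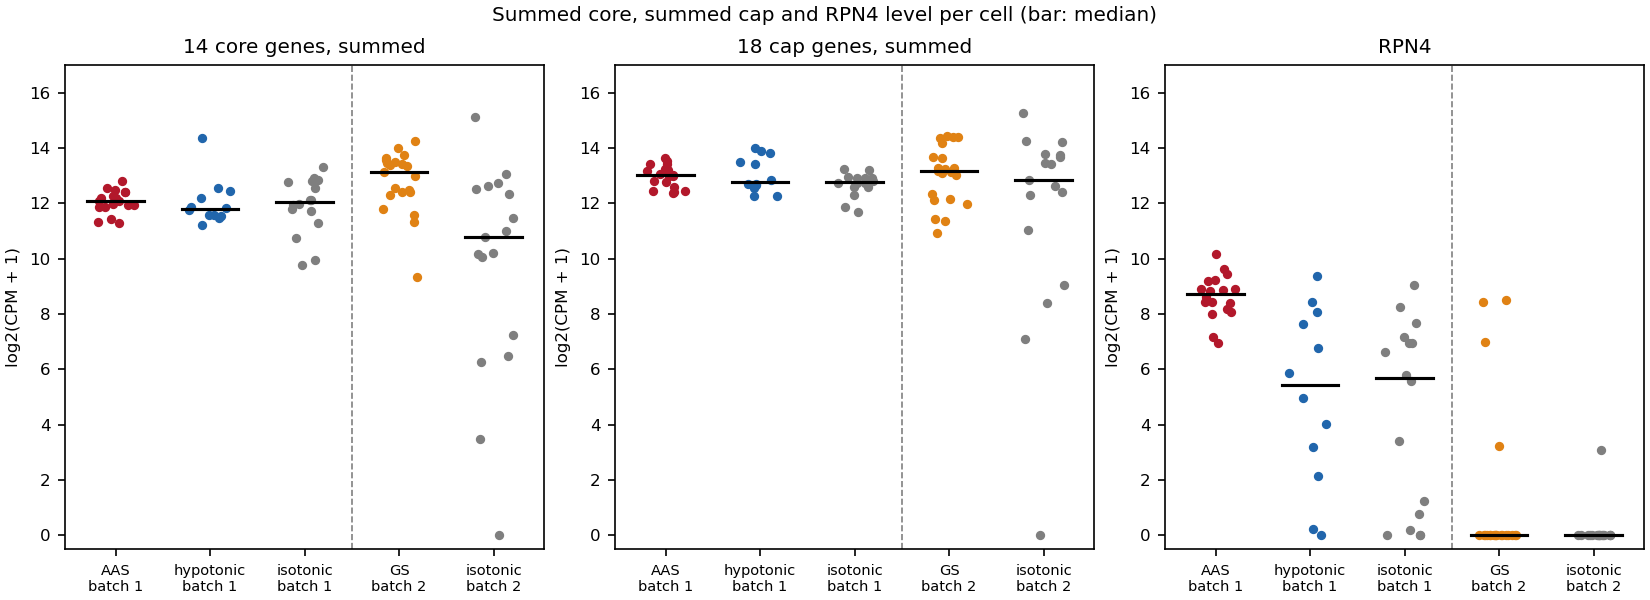
Summed level of the 14 core genes (left), summed level of the 18 cap genes (middle) and level of RPN4 (right) in each kept cell, as log2(CPM + 1), with bars at each group's median, batch 1 to the left of the dashed line and batch 2 to its right. The core and cap sums of AAS cells overlap those of isotonic cells, while RPN4 lies at a median of 425 CPM in AAS cells and 50.3 CPM in isotonic cells.

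Summed over the complex, the share of reads taken by the 32 subunit genes was 1.28 ± 0.331% in AAS cells, 1.46 ± 0.800% in hypotonic cells and 1.16 ± 0.368% in isotonic cells of batch 1. It was 1.93 ± 0.914% in GS cells and 1.46 ± 1.33% in isotonic cells of batch 2 (SD over cells). These shares overlapped in each comparison. The core sum averaged 4445 ± 1231 CPM in AAS cells and 4703 ± 2657 CPM in isotonic cells, and the cap sum 8384 ± 2303 CPM in AAS cells and 6886 ± 1746 CPM in isotonic cells. The cap sum was the higher in the AAS cell in 68.8% of pairs, and 5 AAS cells lay above every isotonic cell. It averaged 10748 CPM in the 5 AAS cells with X in their names and 7475 CPM in the 13 without it. Isotonic cells named A averaged 7411 CPM and those named E or G 6210 CPM. In hypotonic cells the core sum had a median of 3597 CPM and a highest value of 21386 CPM, in cell F23X, against a median of 4230 CPM and a highest value of 10195 CPM in isotonic cells. In GS cells the core sum had a median of 9119 CPM, against 1755 CPM in isotonic cells of batch 2. The GS cell was the higher in 80.7% of pairs. The means of the core sum were 8773 ± 4838 CPM in GS cells and 4619 ± 8410 CPM in isotonic cells. Their log2 ratio of 0.93, beside 0.09 for the cap sum, lies inside the 2-fold rule. The cap sum differed less, with a median of 9212 CPM in GS cells and 7363 CPM in isotonic cells. Per cell, the median ratio of core to cap reads was 0.537 in AAS, 0.508 in hypotonic and 0.630 in isotonic cells of batch 1. In batch 2 the median was 0.974 in GS cells and 0.251 in isotonic cells. The means there ran the other way, with 1.36 in GS cells and 4.12 in 16 isotonic cells. The ratio ran from 0.0505 to 6.23 in GS cells and from 0.00188 to 42.8 in isotonic cells.

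AAS cells were the most even. Each of the 18 had reads for all 32 subunits, against a mean of 30.2 (range 23 to 32) in hypotonic cells and 30.3 (range 20 to 32) in isotonic cells. Thinned to 100000 reads, an AAS cell had 31.6 ± 0.784 subunits with a read, a hypotonic cell 25.5 ± 7.15 and an isotonic cell 26 ± 7.53. At that depth AAS cells also had a mean of 4227 genes in all, against 2574 in hypotonic and 2568 in isotonic cells, so that the same difference was seen over all genes. The median over subunits of the coefficient of variation over cells was 52.6% in AAS, 128% in hypotonic and 103% in isotonic cells. In batch 2, GS cells had 19.3 ± 3.76 subunits with a read and isotonic cells 13.2 ± 6.01, and after thinning to 10000 reads GS cells had 8.81 ± 3.66 and isotonic cells 8.12 ± 5.27.

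Correlations over the cells of a group, on log2(CPM + 1), describe whether the genes moved together from cell to cell. Cells of a group share library preparation and differ in the number of genes detected. The median Pearson correlation between pairs of subunit genes was 0.156 over the 18 AAS cells, beside 0.129 between pairs of all genes. It was 0.287 over 12 hypotonic cells, beside 0.307, and 0.392 over 16 isotonic cells of batch 1, beside 0.197. In batch 2 it was 0.03 over 21 GS cells, beside −0.01, and 0.123 over 17 isotonic cells, beside 0.092. The mean level of the subunits was also set against the number of genes detected, and had r = −0.13 in AAS cells, 0.80 in hypotonic cells and 0.81 in isotonic cells of batch 1. RPN4 itself had r = −0.12 with the number of genes detected in AAS cells, 0.41 in hypotonic cells and 0.52 in isotonic cells. RPN4 and the mean of the subunits had r = −0.19 (rho = −0.15) over AAS cells, r = 0.62 (rho = 0.41) over hypotonic cells and r = 0.64 (rho = 0.57) over isotonic cells. The 3 genes most like RPN4 over AAS cells were COG3 with r = 0.698, ENA1 with 0.681 and MIP1 with 0.643, and the closest subunit was RPN3 with 0.439. Over hypotonic cells they were SIS1 with 0.914, REG1 with 0.913 and SPN1 with 0.894, and the closest subunit was PRE3 with 0.805. Over isotonic cells of batch 1 they were UBX5 with 0.942, GSY2 with 0.935 and APM1 with 0.929, and the closest subunit was RPT4 with 0.763. These values are the highest among 5896 genes in AAS, 5551 in hypotonic and 5520 in isotonic cells. How high the largest of so many correlations runs by chance over so few cells was not tested. The named genes are therefore not shown to follow RPN4.

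Genes around the proteasome were described from lists of known function, whose counts are to be read against the genes tested. Over those genes, 43.2% were higher and 13.8% lower in AAS cells (median 0.74), 21.2% and 30.1% in hypotonic cells (median −0.26), and 44.1% and 26.2% in GS cells (median 0.64). The 10 assembly chaperones help build the particle and leave it when it is complete. In AAS cells 6 of the 10 were at least 2-fold higher, against 43.2% of genes tested, and 0 lower, against 13.8%, and the median log2 fold change was 1.29, beside 0.74. NAS2, a chaperone of the ATPase ring, was the highest, with a median of 58.1 CPM in AAS cells and 0.0151 CPM in isotonic cells. 13 of 18 AAS cells had more NAS2 than any isotonic cell, and the log2 fold change was 3.24. UMP1, which is degraded as core assembly completes, was the lowest at −0.66, with 102 CPM in AAS cells and 163 CPM in isotonic cells. In hypotonic cells 0 of 10 were higher and 1, ADD66, was lower, with −2.14. In GS cells only 3 of the 10 passed the detection filter, of which TMA17, another ATPase chaperone, was read in 15 of 21 GS cells and 5 of 17 isotonic cells, with 5.23. IRC25 was the lowest of the list at −4.89 and did not pass the filter. HSM3 was the highest at 8.05 and did not pass the filter either. It had 9797 reads in 5 GS cells and 0 reads in isotonic cells. By summed reads that is at least 700-fold higher per read on genes, with 3 counts over the isotonic group as the floor. Such bounds, here and below, cover the counting of reads only and not the spread over cells. They set no lower limit on a difference between conditions.

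The list of 8 associated factors holds proteins that bind or regulate the particle and also SEM1, a small lid subunit that is not among the 32 genes above. In AAS cells 6 of the 8 were higher, against 43.2% of genes tested, and 0 lower, against 13.8%, with a median of 1.15, and SPG5 did not pass the filter. UBP6, a deubiquitinase of the cap, had a log2 fold change of 1.04, with 408 CPM in AAS cells and 198 CPM in isotonic cells. BLM10, an alternative cap, had 0.77 in AAS cells, 1.87 in hypotonic cells and −0.85 in GS cells. FUB1, a proteasome-binding protein, was the highest in AAS cells at 1.87 and in hypotonic cells at 1.92, and the lowest in GS cells at −2.24. SEM1 was the lowest in AAS cells at 0.50, and STS1, which tethers proteasomes in the nucleus, in hypotonic cells at −1.12. ECM29 was the highest in GS cells at 6.49, where 1 cell held 77.5% of the GS sum.

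The 5 genes that supply and activate ubiquitin divided in AAS. UBI4, the polyubiquitin gene induced by stress, had a lowest, median and highest level of 801, 2139 and 4186 CPM in AAS cells, against 15.1, 453 and 1074 CPM in isotonic cells. 17 of 18 AAS cells lay above every isotonic cell, and the log2 fold change was 2.06. UBA1, the ubiquitin-activating enzyme, had 1.55. The 3 genes that encode ubiquitin fused to a ribosomal protein were lower, with −3.55 for RPL40A, −3.54 for RPL40B and −3.49 for RPS31. RPL40A and RPL40B are near-identical copies, so that the split of uniquely aligned reads between them is uncertain. In hypotonic cells 0 of the 5 were higher, against 21.2% of genes tested, and 4 were lower, against 30.1%, RPS31 the most with 420 CPM in hypotonic cells and 1684 CPM in isotonic cells, while UBI4 had 0.40. In GS cells UBI4 had 0.24, RPL40A was the highest at 0.91, and UBA1, the only one lower at −6.57, did not pass the filter.

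Of the 8 genes for Cdc48, its cofactors and the shuttle factors, which extract and deliver ubiquitinated proteins, 2 were higher and 0 lower in AAS cells, 2 higher and 1 lower in hypotonic cells, and 3 higher and 1 lower in GS cells. The shares of all genes tested that were higher were 43.2% in AAS, 21.2% in hypotonic and 44.1% in GS cells. CDC48, the segregase itself, had −0.44 in AAS cells, −0.25 in hypotonic cells and 0.89 in GS cells. UFD1, its substrate-binding cofactor, was the highest in AAS cells at 1.76 and DSK2, a shuttle factor, the lowest at −0.80. DDI1 was the highest in hypotonic cells at 2.09 and UFD2 the lowest at −1.18. NPL4 was the highest in GS cells at 4.95 and RAD23 the lowest at −2.58, with 3.36 for RAD23 without the highest cells.

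The genes that set the level of Rpn4 were taken in 2 lists. Of the 4 genes for ubiquitin ligases and the conjugating enzyme, among them UBR2, MUB1 and RAD6 that mark Rpn4 for destruction, 2 were higher in AAS cells, beside 43.2% of genes tested, from 0.33 for UBR2 to 1.40 for RAD6. In hypotonic cells 1 was lower, UBR2 at −1.11, and UBR1 was the highest at 0.65. In GS cells 1 was higher and 3 were lower, against 44.1% and 26.2% of genes tested, and 2 of the 4 passed the filter. UBR2 had 3 reads over all GS cells (exact Poisson interval 0.619 to 8.77) and a mean of 192 CPM in isotonic cells, and MUB1 was read in 2 GS cells and 0 isotonic cells, at least 37.0-fold higher against the same floor. Of the 4 transcription factors that act on the RPN4 promoter, HSF1, the heat shock factor, was the only one higher in AAS cells. HSF1 had 0.177, 289 and 617 CPM as lowest, median and highest level in AAS cells, against 0, 12.1 and 336 CPM in isotonic cells. 8 AAS cells lay above every isotonic cell, and the log2 fold change was 2.38. PDR1 had 0.91, YAP1 had 0.34 and PDR3 had −0.60 in AAS cells. In hypotonic cells YAP1 had 0.70, HSF1 had 0.11, PDR1 had −0.45 and PDR3 had −2.32. In GS cells all 4 were higher, and 3 of them also without the highest cells, against 44.1% of genes tested, with 1.42 for YAP1, 4.22 for PDR3 and 7.24 for PDR1, and HSF1 had 7196 reads in 3 GS cells and 2 reads in 1 isotonic cell. HSF1 and PDR3 did not pass the filter there.

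Of 9 vacuolar proteases and their inhibitors, 4 were higher and 0 lower in AAS cells, beside 43.2% and 13.8% of genes tested, with CPS1 the lowest at −0.22. PBI2, an inhibitor, was the highest, with a log2 fold change of 2.46 from mean CPM. It had 348 reads in 11 AAS cells and 0 reads in isotonic cells. By summed reads that is at least 243.5-fold higher against the same floor. In hypotonic cells 1 was higher and 3 lower, from −2.58 for PAI3 to 1.27 for PRB1, and in GS cells 2 were higher and 2 lower, from −3.33 for CPS1 to 6.33 for PAI3. Of 18 heat shock chaperones, 5 were higher and 1 lower in AAS cells, beside 43.2% and 13.8% of genes tested, from −1.81 for YDJ1 to 4.18 for SSA3, with a median of 0.24, beside 0.74. In hypotonic cells 5 were higher and 2 lower, from −1.15 for SIS1 to 5.67 for SSA3, and in GS cells 7 were higher and 6 lower, with SSE1 the lowest at −4.76. FES1 was the highest in GS cells at 7.46 and did not pass the filter. It had 7946 reads in 5 GS cells and 0 reads in isotonic cells, by summed reads at least 567-fold higher against that floor.

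Subunits with and without PACE overlapped in their values. In AAS cells the 27 subunit genes with an exact PACE had a median log2 fold change of 0.09, and the 5 without it had 0.21. In hypotonic cells the medians were −0.04 with and 0.39 without PACE, and in GS cells 1.60 and 0.83 in the same order. The 44 genes of the files with PACE that are no members had a median of 0.84 in AAS cells, beside 0.74 over all genes tested, with 19 higher and 3 lower, a share of higher genes that equals the 43.2% of all genes tested. Their median was 0.15 in hypotonic cells, with 8 higher and 10 lower, beside 21.2% and 30.1% of genes tested. In GS cells it was 0.31, with 18 higher and 9 lower. Only 22 of the 44 passed the detection filter there, with a median of 0.74. Of those 22, 10 were higher and 2 lower, beside 44.1% and 26.2% of genes tested. The 44 genes ran from −1.28 for NOP14 to 3.99 for SDH9 in AAS cells.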

How the data were processed

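For every cell the authors deposited a table of read counts by gene. As the methods and the labels say, the authors aligned reads with STAR 2.5.2 to the R64 genome and counted uniquely aligned reads with HTSeq, whose strand setting is not otherwise stated. RSEM 1.2.31 is also named in the submitters' processing notes. The authors' gene set was used as deposited, and 6019 of 6420 entries matched a RefSeq locus tag. Levels are CPM, with the sum over gene entries as the total, so that 92 spike-in entries and 5 entries without a gene played no part. No column of per-sample values was left unmapped (0).

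The 33 members and the other gene lists were chosen with earlier results of these data known. Groups were compared within a batch over the 84 kept cells, whose names in batch 2 were read from a figure. Fold changes are ratios of group means of CPM, on the log2 scale, with a pseudocount of 1 CPM. A gene was tested if at least 20% of the compared cells had 1 read or more of it, and called if at least 2-fold different. Since each group counted as 1 sample, no test across genes was made. Named genes are RPN4, the highest and lowest member of each role in each comparison, PRE3, PUP1, PRE2, RPN11, and of the other lists UMP1, BLM10, UBP6, UBI4, CDC48, YAP1, PDR1, HSF1 and the highest and lowest of each list. RPN1, RPN6, RPN9, RPN2, RPT2, TMA17, UBA1 and any other gene outside this rule were named after their values were seen.

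The alternatives were pseudocounts of 0.1 and 10 CPM, summed reads, the same sums scaled with TMM from edgeR 4.0.16 or with size factors from DESeq2 1.42.0, the mean log2(CPM + 1) in place of the log2 of means, leaving out the highest cell or each cell in turn, no detection filter, centring on the median gene, all labelled cells, cells thinned to 100000 reads (batch 1) or 10000 reads (batch 2), and subsets of cells by name. Exact Clopper-Pearson and Poisson intervals are at 95% and cover counting error only. The fold measure was run on simulated cells with planted changes larger than 2-fold. Their spread over cells was not set from these data. The run therefore does not show how the measure behaves where single cells hold most of a sum. Promoter windows and sites were read from the RefSeq R64 genome by exact search. Python 3.11.15, NumPy 2.4.6, SciPy 1.17.1, pandas 2.3.3, matplotlib 3.10.9 and R 4.3.3 were used. Bulk libraries were not used here, and no comparison was made across batches.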

Additional observations from a re-analysis of the deposited data

How the results depend on the processing

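In AAS over isotonic cells, the core median of −0.09 became −1.12 with TMM, −1.21 with DESeq2 size factors and turned positive as a difference of mean log2 values (1.33), without the highest cells (0.09), with all labelled cells (0.08), against isotonic cells named E or G (0.50) or for AAS cells with X alone (0.21), and ran from −0.18 to 0.06 when single cells were left out. The cap median of 0.24 became 1.46 as a difference of mean log2 values and turned negative with TMM (−0.58), DESeq2 size factors (−0.66), centring (−0.50) and, at −0.01, against isotonic cells named A or for AAS cells without X, and ran from 0.15 to 0.33 without single cells. The 4 subunits higher became 1 with TMM, DESeq2 size factors or centring, 23 with mean log2 values, 2 against isotonic cells named A, 9 against those named E or G and 3 to 4 without single cells. The 0 lower became 2 with summed reads, 10 with TMM, 14 with DESeq2 size factors, 5 with centring, 1 against cells named E or G, and stayed 0 to 0 without single cells. RPN4 ran from 2.01 to 2.61 without single cells. Over all genes tested in AAS the split of 43.2% higher and 13.8% lower, with a median of 0.74, became 27.9% and 25.7% with a median of 0.09 under TMM, 26.3% and 26.9% with 0.01 under DESeq2 size factors, and 71.6% and 6.9% with 1.97 under mean log2 values.

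In hypotonic over isotonic cells, leaving out single cells moved the core median of −0.46 from −0.56 to −0.20, the cap median of 0.34 from 0.12 to 0.43 and RPN4 from −0.12 to 0.93. The core median was 0.63 against isotonic cells named E or G, and the cap median −0.04 without the highest cells and −0.06 with mean log2 values. The 5 higher became 9 with DESeq2 size factors, 2 without the highest cells, 11 against cells named E or G, and 2 (without F23X) to 6 (without A27). The 0 lower became 1 with a pseudocount of 0.1, with TMM, with DESeq2 size factors or without the highest cells, 2 with thinned cells or F cells alone, 3 against cells named E or G, 4 with summed reads or against cells named A, 5 with mean log2 values, and 0 to 4 (without C80X).

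In GS over isotonic cells, the core median of 1.99 became 0.98 with TMM, 0.82 with DESeq2 size factors and 0.92 with mean log2 values, and 1.68 to 2.07 without single cells. The cap median of 1.14 fell under the 2-fold rule with summed reads (0.87), TMM (0.63), DESeq2 size factors (0.47), mean log2 values (0.45), centring (0.51), all labelled cells (0.86), thinned cells (0.61) or Y2 cells included (0.52), and ran from 0.79 (without Y513) to 1.37. The 18 higher ran from 17 to 21 and the 5 lower from 3 (without Y703) to 6. RPN4 became 0.71 with all labelled cells and ran from 4.12 to 5.37. The 1480 genes called of 2106 tested became 3772 of 5214 with no detection filter. The shares higher and lower were 43.7% and 28.6% without the filter, beside 44.1% and 26.2% with it. The cause of the shifts between settings was not tested. No paired analysis was possible because the labels carry no replicate numbers. Batch 2 holds fewer reads and genes per cell, which limits its values.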
